A study of Mus musculus with 8 samples.

Results

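Halved H2A.Z peaks are regions bound by H2A.Z in both genotypes whose called width in Znhit1-CKO testes was at most 0.5 times the control width. Members were pairs made of 1 control peak under 2500 bp and 1 Znhit1-CKO peak that overlapped each other by at least 1 bp and overlapped no other peak. Of 48752 control peaks, 22040 formed such one-to-one pairs, 21679 of these had a control peak under 2500 bp, and 2913 were halved (13.4% of the 21679 pairs). The 2913 pairs hold 5.98% of the control peaks and 9.35% of the 31156 Znhit1-CKO peaks. Members were thus selected on the measured peak widths of both genotypes, so widths are given as a description and nothing is tested on them.

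The study set out to learn how ZNHIT1 shapes H2A.Z occupancy in male germ cells, and its samples are labelled testis cells. Chromatin from whole testis cells of control and Znhit1-CKO mice (named Znhit1-sKO in the protocol) was immunoprecipitated for H2A.Z at postnatal day 14, with 2 immunoprecipitated and 2 input libraries per genotype, 8 in all. The sources used here do not name the Cre driver or the allele of the conditional knockout, and whole dissociated testes also hold somatic cells. The files hold positions only, of the peaks called in each genotype and of the authors' differential regions, so no value carries a replicate error and depth per library is unknown.

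H2A.Z is a variant of histone H2A that typically occupies the nucleosomes flanking the starts of active genes, and it also marks enhancers and the promoters of developmental regulators that Polycomb complexes hold silent in embryonic cells. The SRCAP complex, of which ZNHIT1 is a subunit, exchanges H2A for H2A.Z in nucleosomes. A peak is an interval over which the caller found enrichment, so its width depends on how far H2A.Z spreads, on how strong the signal is, and on background and read depth. In whole tissue, fewer cells of a type and less H2A.Z per cell cannot be told apart.

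The promoters of 5 genes with a halved pair show how much of a gene start was left inside the Znhit1-CKO peak. Each is the RefSeq promoter on GRCm38.p6, from 250 bases before the start to 50 after it, 5′ to 3′ on the gene's strand. All 300 bases lay inside the control peak at each gene, and capitals mark the bases still inside the Znhit1-CKO peak. They were chosen after their values were seen, and sides are relative to the listed start. They show 1 peak that began just past that start (Tex12), 3 that covered it (Hormad2, Sohlh2, Grem1) and 1 that lay upstream of it (Henmt1).
Tex12: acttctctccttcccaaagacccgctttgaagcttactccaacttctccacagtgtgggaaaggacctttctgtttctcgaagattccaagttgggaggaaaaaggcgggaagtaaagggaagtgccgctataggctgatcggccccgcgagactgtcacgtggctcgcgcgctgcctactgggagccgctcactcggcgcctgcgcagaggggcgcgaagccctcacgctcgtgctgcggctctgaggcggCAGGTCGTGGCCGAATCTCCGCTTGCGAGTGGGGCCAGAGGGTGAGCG
Hormad2: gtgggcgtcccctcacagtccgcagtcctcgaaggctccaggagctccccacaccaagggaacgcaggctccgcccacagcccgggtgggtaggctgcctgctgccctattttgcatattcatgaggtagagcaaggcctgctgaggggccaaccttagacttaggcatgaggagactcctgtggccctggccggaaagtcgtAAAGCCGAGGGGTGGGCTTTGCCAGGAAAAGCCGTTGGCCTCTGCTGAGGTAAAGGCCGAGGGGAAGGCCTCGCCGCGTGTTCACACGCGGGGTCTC
Sohlh2: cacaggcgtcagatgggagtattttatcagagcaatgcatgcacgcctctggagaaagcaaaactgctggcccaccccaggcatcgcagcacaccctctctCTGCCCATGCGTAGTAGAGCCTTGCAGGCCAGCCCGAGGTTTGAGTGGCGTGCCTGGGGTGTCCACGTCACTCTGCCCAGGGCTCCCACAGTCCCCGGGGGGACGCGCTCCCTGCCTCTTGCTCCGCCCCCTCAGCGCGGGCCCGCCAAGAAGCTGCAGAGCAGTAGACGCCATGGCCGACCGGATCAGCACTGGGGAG
Grem1: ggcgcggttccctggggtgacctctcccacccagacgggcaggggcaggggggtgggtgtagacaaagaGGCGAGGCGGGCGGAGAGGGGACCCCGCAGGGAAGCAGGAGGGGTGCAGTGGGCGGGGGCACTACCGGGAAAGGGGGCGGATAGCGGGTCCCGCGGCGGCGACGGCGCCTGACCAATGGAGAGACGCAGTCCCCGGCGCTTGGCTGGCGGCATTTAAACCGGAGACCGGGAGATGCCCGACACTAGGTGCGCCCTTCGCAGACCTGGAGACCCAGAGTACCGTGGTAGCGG
Henmt1: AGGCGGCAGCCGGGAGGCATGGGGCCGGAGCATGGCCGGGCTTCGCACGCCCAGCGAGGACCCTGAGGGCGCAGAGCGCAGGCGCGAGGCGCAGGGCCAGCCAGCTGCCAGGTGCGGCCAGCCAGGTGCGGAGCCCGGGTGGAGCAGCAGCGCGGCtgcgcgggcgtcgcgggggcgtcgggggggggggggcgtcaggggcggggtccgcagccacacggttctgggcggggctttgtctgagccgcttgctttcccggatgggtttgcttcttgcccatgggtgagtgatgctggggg

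Tex12, a component of the central element of the synaptonemal complex, kept 48 of the 300 bases (chr9:50561219-50561518, minus strand). Hormad2, a protein of the meiotic chromosome axis, kept 97 (chr11:4441033-4441332, minus strand). At both genes the bases that remained ran to the downstream edge of the window, and the upstream bases were in the control peak only. Sohlh2, a transcription factor of differentiating spermatogonia, kept 199 (chr3:55181794-55182093, plus strand). Grem1, which encodes a secreted antagonist of BMP signals, kept 231 (chr2:113758599-113758898, minus strand). Henmt1, the methyltransferase of piRNA 3′ ends, was the opposite case at its listed start, as the 156 bases kept were the upstream ones (chr3:108940307-108940606, plus strand). That start lies inside the gene, which begins at 108939454, so the remaining peak was downstream of the gene's first base. The listed start of Hormad2 is internal too, as the gene's outer coordinate is 4441198, upstream of the remaining peak.

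Across the 2913 halved pairs the median width was 1073 bp in control (from 385 to 2492 bp) and 371 bp in Znhit1-CKO (from 188 to 1213 bp). The median Znhit1-CKO to control ratio was 0.388, a log2 ratio of -1.37, and the smallest was 0.0871. Summed over the pairs, 3.32 Mb of control peak became 1.20 Mb (36.1%). The other 18766 pairs had a similar median control width of 1136 bp, a median Znhit1-CKO width of 932 bp and a median ratio of 0.869. Ratios ran on across the threshold. At the near side, 698 of the halved pairs (24.0%) had a ratio of at least 0.45, and beyond it 832 of the other pairs had a ratio over 0.5 and up to 0.55. A ratio of 0.25 or less was found in 376 halved pairs (12.9%).

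**Figure D1:**
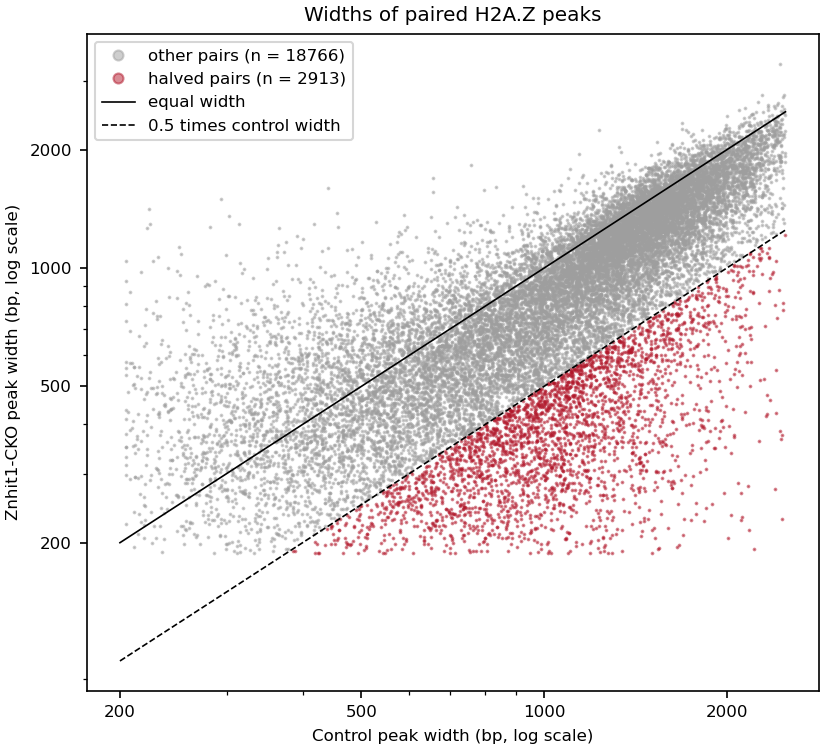
Znhit1-CKO peak width against control peak width in bp, both on log axes, for 2913 halved pairs (red) and 18766 other pairs (grey), 1 point per pair. The halved pairs lie on or below the dashed line of 0.5 times the control width and run on from the grey cloud without a gap, and no Znhit1-CKO peak is narrower than 188 bp.

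Pairs beside the threshold differ by little. Syt14, a synaptotagmin gene, was a member with 1640 bp in control and 820 bp in Znhit1-CKO. A pair at no protein-coding gene boundary, on chromosome 17 from 83334433 to 83335587, was not, with 1155 and 578 bp. At the width limit, Erlin2 was the widest member at 2492 bp, narrowed to 1213 bp, while Pde11a, with 2532 and 789 bp, fell outside. In all, 35 of 361 pairs with a control peak of 2500 bp or more (9.70%) had a ratio of 0.5 or less.

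The narrowest peaks in the files were 205 bp in the control list and 188 bp in the Znhit1-CKO list, which bounds how far a pair could shrink. Only 2.08% of pairs with a control peak of up to 500 bp were halved, against 21.9% (95% interval 20.5 to 23.3%) at 751 to 1000 bp and 9.54% (8.66 to 10.5%) at 1501 to 2000 bp. Of the halved pairs, 455 (15.6%) had a Znhit1-CKO peak under 250 bp, close to that floor, against 1.07% of the other pairs. Intervals on shares are exact binomial 95% intervals over pairs, promoters or genes and cover counting error only. They leave out the spread between animals, and neighbouring regions are not independent.

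Most halved pairs lay away from protein-coding gene boundaries. Of the 2913, 955 (32.8%, 31.1 to 34.5%) were within 1000 bp of the start or end coordinate of a protein-coding gene, against 9813 of the 18766 other pairs (52.3%, 51.6 to 53.0%). A further 331 (11.4%) were at the boundary of another kind of gene only, mostly lncRNA genes (262 pairs). Another 621 (21.3%) lay inside a protein-coding gene and 1006 (34.5%) outside all of these places. Read the other way, 8.87% of pairs at protein-coding boundaries were halved, 18.4% at the boundaries of other genes, 15.6% inside protein-coding genes and 19.6% elsewhere.

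The difference was as large at matched control widths. With the other pairs reweighted to the control widths of the halved pairs, 52.6% were at a protein-coding boundary. Among control peaks of 1251 to 1500 bp, 7.31% of pairs at boundaries (6.33 to 8.39%) and 25.6% of pairs elsewhere (23.0 to 28.4%) were halved. At 501 to 750 bp the shares were close, 10.5% (8.30 to 13%) and 13.9% (12.5 to 15.3%), and their intervals overlapped. When each control peak was matched to its widest Znhit1-CKO peak and several overlaps were allowed, the difference at boundaries shrank from -19.5 to -10.8 percentage points.

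**Figure D2:**
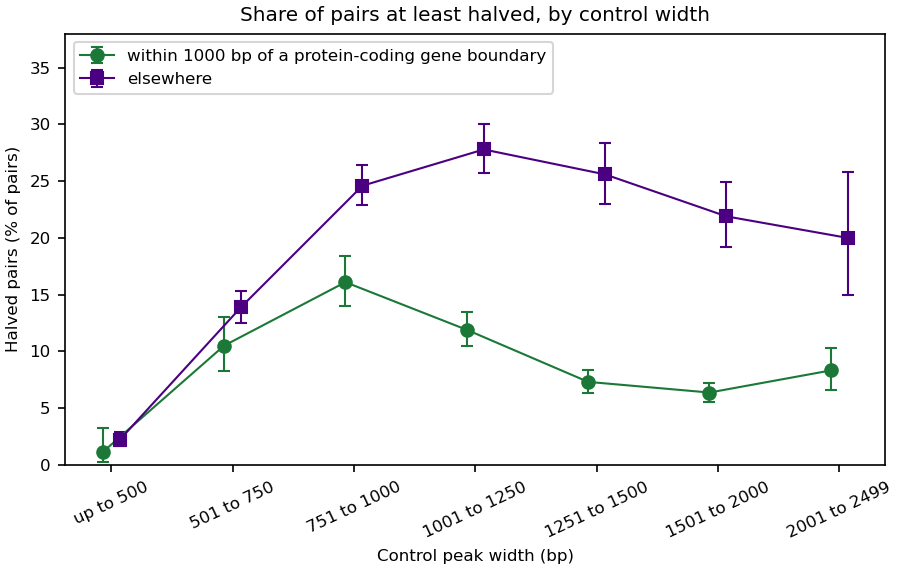
Share of pairs that were halved, in % of pairs, against control peak width in 7 groups, for pairs within 1000 bp of a protein-coding gene boundary (green circles) and elsewhere (purple squares), with exact 95% intervals as bars. From 751 bp upward the purple points (20.0 to 27.8%) lie above the green ones (6.37 to 16.1%).

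Gene starts and gene ends behaved differently. Strand is known for genes in the RefSeq promoter table, which holds 17492 of the 21900 protein-coding genes and leaves out chromosome 18 here. Starts and ends of genes not listed there were not counted. Of 9402 pairs within 1000 bp of a protein-coding gene start, 762 were halved (8.10%, 7.56 to 8.67%). Of 377 pairs at a listed gene end but at no listed start, 79 were halved (21.0%, 17 to 25.4%). This was close to the 17.5% of pairs at neither, which can include boundaries of unlisted genes. A control peak holding 2 or more listed starts was found in 2.17% of halved pairs and 7.68% of other pairs.

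The widest halved pairs away from every gene boundary lay mostly within genes. At Crhr1, the corticotropin-releasing hormone receptor gene, 2400 bp (chromosome 11, 104131549 to 104133948) became 274 bp, with a differential region and a listed internal start in the peak. At Amer2 2345 bp became 1062 bp, at Ccdc177 2289 bp became 965 bp, and at Synpo, an actin-binding protein gene, 2402 bp became 804 bp. A pair outside any protein-coding gene, on chromosome 13 from 104540648 to 104542929, went from 2282 to 1058 bp. The smallest ratio of all, singled out after its value was seen, was inside Sorbs2, a cytoskeletal adaptor gene, where 2217 bp (chromosome 8, 45794855 to 45797071) became 193 bp.

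Some genes held several halved pairs. Within or up to 1000 bp from the gene, 31 protein-coding gene models had at least 3, out of all 21900, with or without pairs. Many of the 31 were overlapping models of the protocadherin locus on chromosome 18, such as Pcdha1, with 5 of 8 pairs halved. Chosen after their values were seen, Mast1, a microtubule-associated kinase gene, had all 4 of its pairs halved, Mypn, a sarcomere protein gene, all 3, and Hoxa3 3 of 4. On the X chromosome 73 of 437 pairs were halved (16.7%, 13.3 to 20.5%), against 13.4% on the autosomes (12.9 to 13.8%), with overlapping intervals. Single autosomes ranged from 11.2 to 15.7%.

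A narrow peak has more room inside its control peak, so the place of the remaining peak follows in part from the width rule and is given as a description. In 2595 halved pairs (89.1%) the Znhit1-CKO peak lay wholly inside the control peak, against 50.4% of the other pairs. Both ends were drawn in by more than 10% of the control width in 1854 pairs (63.6%), and only 1 end in 1059 (36.4%). With the ends of each pair sorted by loss, the median was 510 bp on the side that lost more and 148 bp on the other. Other pairs had 137 and 0 bp. The sorting itself sets the order of these medians, so they do not show an uneven loss. The centre of the Znhit1-CKO peak lay in the middle 50% of the control peak in 74.6% of halved pairs and in 91.7% of other pairs, and outside the control peak in 30 halved pairs (1.03%) and 2.32% of other pairs.

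At gene starts the remaining peak mostly covered the start or lay downstream of it. In 574 halved pairs the control peak held exactly 1 listed start of a protein-coding gene, and its median edges were at -505 and 748 bp from the start, counted along the gene. The median edges of the Znhit1-CKO peak were at -71 and 378 bp. It covered the start in 311 of the 574 pairs (54.2%, 50 to 58.3%), lay wholly downstream in 196 (34.1%, 30.3 to 38.2%) and wholly upstream in 67 (11.7%, 9.16 to 14.6%). In the 6404 other pairs of this kind it covered the start in 95.9%, and lay wholly downstream in 3.34% and wholly upstream in 0.796%. A peak chosen for being narrow covers a given base less often, so this difference in coverage partly restates the rule.

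Position by position, coverage by the Znhit1-CKO peak was highest at 150 bp past the start. There 99.3% of the control peaks and 70.2% of the Znhit1-CKO peaks of halved pairs covered the base. At position -150 the values were 92.2 and 32.1%, and at 500 bp past it 81.4 and 29.3%. The lost length itself was shared between the sides, a median of 405 bp upstream and 369 bp downstream, and the upstream loss was the larger in 53.0% of pairs (48.8 to 57.1%). With a ratio of at most 0.4 the share wholly downstream was 38.4%, and with at most 0.6 it was 24.9%.

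**Figure D3:**
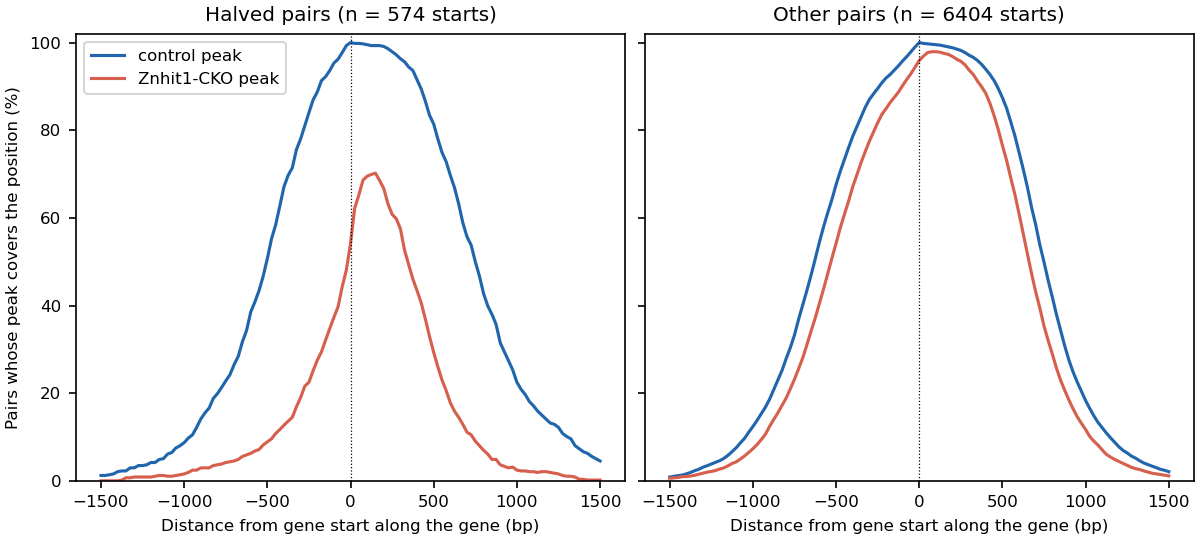
Percent of pairs whose control peak (blue) or Znhit1-CKO peak (red) covers each position, against distance from the gene start in bp along the gene, for 574 halved pairs (left) and 6404 other pairs (right). On the left the red curve peaks at 70.2% at 150 bp downstream of the start and is 54.2% at the start itself. On the right the curves are close near the start and part on the flanks, with 54.5 and 40.5% at -600 bp and 74.9 and 60.9% at 600 bp.

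The 3 positions are seen at single genes. Sohlh2 had a control peak of 1718 bp from -803 to 914 bp, and a Znhit1-CKO peak of 428 bp from -149 to 278 bp. At En1, a homeobox gene of the midbrain and hindbrain, 1814 bp became 399 bp that began 341 bp past the start. At Wnt7a, a Wnt ligand gene, 1274 bp became 188 bp, from -557 to -370 bp. Slc12a5, the neuronal potassium-chloride cotransporter gene, kept 194 of 1546 bp, from 397 to 590 bp downstream. Efnb1, an ephrin ligand gene on the X, kept 268 of 2108 bp, from -901 to -634 bp.

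The promoters at halved pairs were poorer in CpG than those at other pairs. A promoter was called CpG-rich with a GC content of at least 50% and an observed over expected CpG ratio of at least 0.6 over its 300 bases. That held for 337 of 574 promoters at halved pairs (58.7%, 54.6 to 62.8%), 4601 of 6404 at other pairs (71.8%, 70.7 to 72.9%) and 45.1% of all 21263 protein-coding promoters in the table. Reweighted to the control widths of the halved pairs, the other pairs had 69.6%. GC content alone was alike, with medians of 62.0 and 61.7%, while the median CpG count per promoter was 18 at halved and 21 at other pairs. The gap of -13.1 percentage points shrank to -3.27 when control peaks overlapping several peaks were also taken, each with its widest Znhit1-CKO peak. Promoters whose peak ended up downstream were CpG-rich in 54.6% (47.3 to 61.7%), and those whose peak ended up upstream in 65.7% (53.1 to 76.8%).

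Of 8 motifs searched on both strands, none contains another, though matches of different motifs can overlap at their ends. The GC box GGGCGG was in 63.6% of promoters at halved pairs, 68.6% at other pairs and 46.2% of all promoters. The cAMP response element TGACGTCA was in 1.92, 3.51 and 2.23%, the palindromic NRF1 motif in 1.05, 2.09 and 1.33%, and the E-box CACGTG in 8.19, 10.6 and 7.84%. CNCCTCAG, the motif named for the meiotic initiators STRA8 and MEIOSIN, was in 11.3% (8.85 to 14.2%), 8.92% (8.23 to 9.64%) and 8.52%. The MYB motif AACNGTT was in 3.14, 2.87 and 4.05%, CCAAT in 36.8, 36.2 and 38.2%, and TATAAA in 7.32, 6.03 and 12.6%. The intervals for CNCCTCAG at halved and other pairs overlapped. In the promoters printed above, CNCCTCAG lay inside the Znhit1-CKO peak at Sohlh2 (from -22 to -15, sharing bases with a GC box) and outside it at Hormad2 and Tex12. A match describes the letters of this window and not a bound site.

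Genes of the lists examined differed widely in how often they held a halved pair. A gene was counted where a pair lay within 1000 bp of either boundary, and 1039 of 11485 such protein-coding genes (9.05%) had a halved one. Developmental regulators, transcription factor genes that are Polycomb targets in embryonic cells, had a halved pair at 24 of 48 genes (50%, 35.2 to 64.8%). Their widest control boundary peaks had a median of 1256 bp, against 1433 bp over all such genes. Of the 24, 17 had a differential region on the halved pair, beside 711 of the 1039 genes. Another 44 of the list's 92 genes with a control boundary peak had no one-to-one pair and are not counted.

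**Figure D4:**
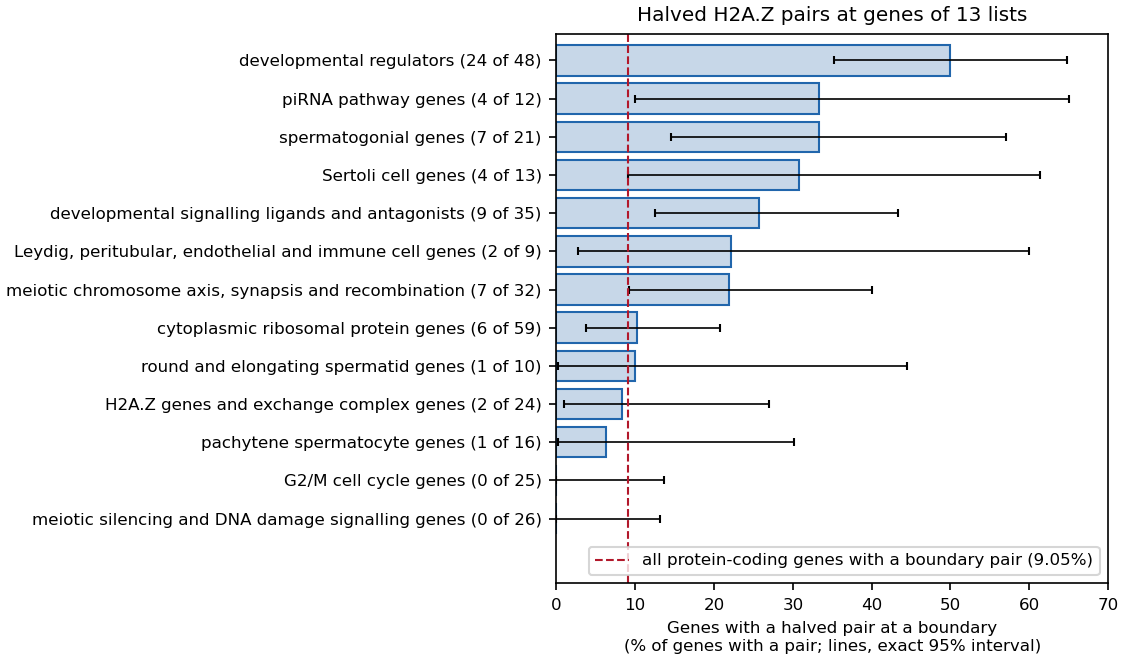
Percent of genes with a halved pair at a boundary, among genes of each list with a pair there, for 13 lists, with exact 95% intervals as lines and the 9.05% of all protein-coding genes as the dashed line. Developmental regulators stand at 50%, while the G2/M and the meiotic silencing lists are at 0.

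Among the developmental regulators, Wt1, a zinc finger gene of the gonad and kidney, went from 1757 bp (chromosome 2, 105125833 to 105127589) to 296 bp. Hoxb1 and Hoxc13, from different Hox clusters, both kept 271 bp, of 1466 and 1167 bp. The forkhead genes Foxc1 and Foxc2 went from 1805 and 1654 bp to 412 and 463 bp. Either boundary counts, so a pair need not lie at the gene start. The Foxc1 pair lay over the higher coordinate of its gene (31810635), the Foxc2 pair over the lower (121116171). Sox17, an endoderm regulator, kept 276 of 1392 bp, and Sox9, which drives Sertoli cell fate, 378 of 1022 bp without a differential region. The neighbours Zic1 and Zic4 share 1 pair, of 1219 and 473 bp. At the mild end were Six2, from 1282 to 624 bp, and Gata3, from 1186 to 588 bp.

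Developmental signalling genes had a halved pair at 9 of 35 (25.7%, 12.5 to 43.3%). Wnt11 lost most in length, from 2457 bp (chromosome 7, 98834751 to 98837207) to 368 bp, the part that remained ending 40 bp past the start. The Notch ligand genes Jag2 and Dll4 went from 2144 and 1452 bp to 608 and 545 bp, in both cases downstream of the start. Gdf7, a BMP-family ligand gene, and Fgf8, a fibroblast growth factor gene, each had 2 halved pairs. At Fgf8 these went from 1432 to 269 bp and from 979 to 466 bp.

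**Figure D5:**
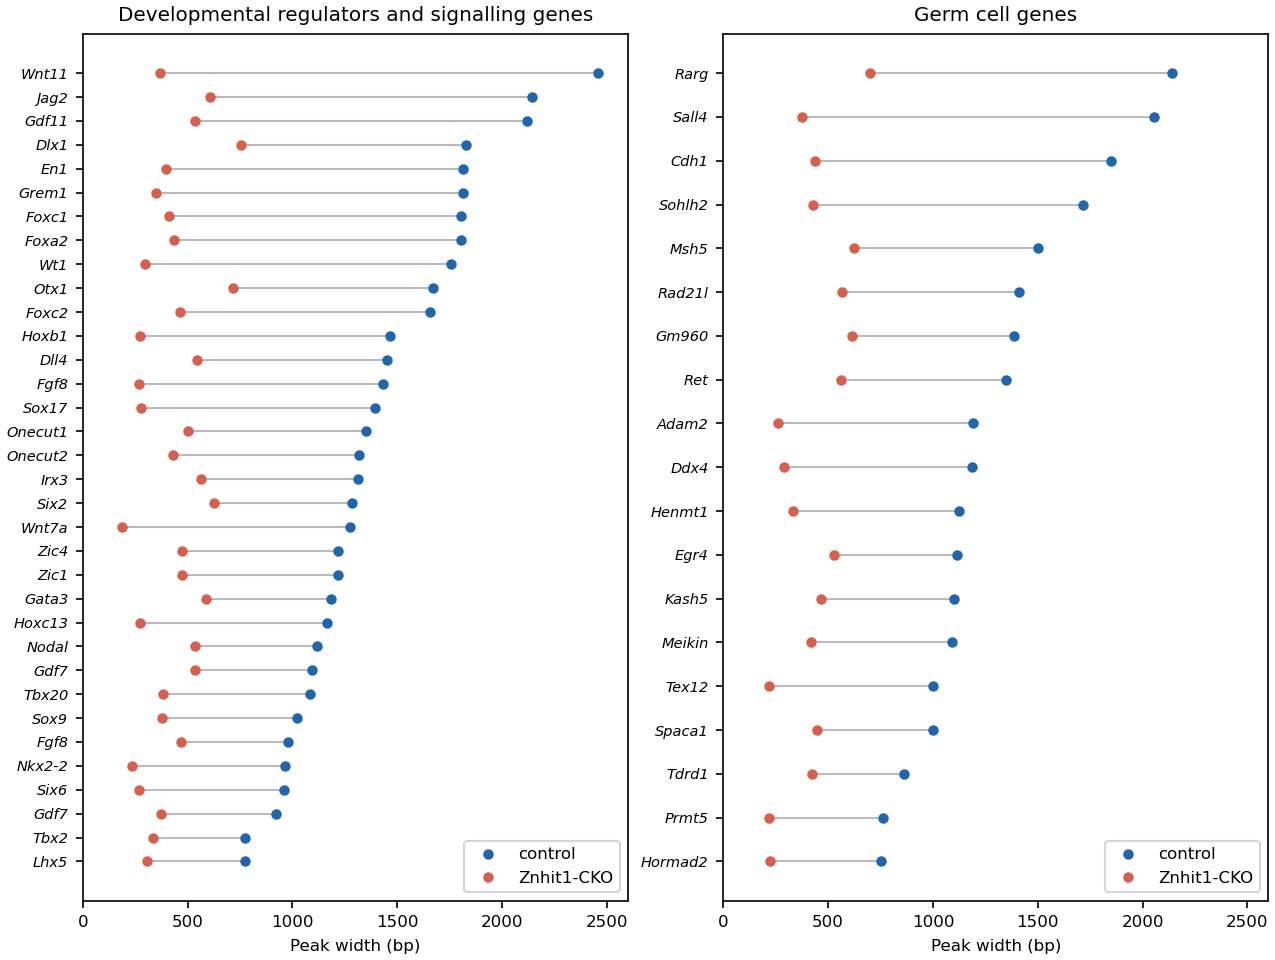
Control (blue) and Znhit1-CKO (red) peak width in bp at halved pairs of the developmental regulator and signalling lists (left) and of the 5 germ cell lists (right), 1 row per gene and pair in order of control width. Znhit1-CKO widths lie between 188 and 753 bp on the left and between 219 and 701 bp on the right.

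Meiotic genes of the chromosome axis, synapsis and recombination had a halved pair at 7 of 32 (21.9%, 9.28 to 40.0%). Of the 7, 6 had a differential region, beside 711 of all 1039 genes with a halved pair. Tex12 went from 1002 to 219 bp and Hormad2 from 753 to 222 bp. Rad21l, a meiotic cohesin subunit gene, went from 1409 to 567 bp, and Kash5, which links telomeres to the cytoskeleton, from 1099 to 468 bp. Meikin, which acts at meiotic kinetochores, kept 418 of 1089 bp. Gm960 (Top6bl), the partner of SPO11 in making double-strand breaks, kept 613 of 1385 bp. Msh5, a crossover factor, went from 1500 to 624 bp without a differential region.

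Spermatogonial genes had a halved pair at 7 of 21 (33.3%, 14.6 to 57.0%). Sall4, a zinc finger gene of germline stem cells, went from 2057 bp (chromosome 2, 168765074 to 168767130) to 375 bp. Cdh1, the E-cadherin gene, went from 1849 to 436 bp, and Rarg, a retinoic acid receptor gene, from 2142 to 701 bp. Ret, a subunit of the GDNF receptor, kept 563 of 1349 bp, and Egr4 526 of 1116 bp. Genes of the piRNA pathway had one at 4 of 12 (33.3%, 9.92 to 65.1%). A differential region lay on 68.1% of all halved pairs at protein-coding boundaries and on those of all 4 genes. They were Ddx4, the germline helicase gene also in the spermatogonial list (1186 to 291 bp), Henmt1 (1126 to 334 bp), Prmt5 (763 to 220 bp) and Tdrd1 (863 to 421 bp).

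Of later germ cell genes with a control boundary peak, 16 of 27 pachytene and 10 of 17 spermatid genes had a one-to-one pair there. The pair was halved at 1 of the 16 pachytene genes, Adam2, a sperm surface protein gene (1189 to 263 bp). Among the 10 spermatid genes it was halved at 1, Spaca1, an acrosomal membrane protein gene (1000 to 449 bp). Both shares, 6.25 and 10.0%, stand beside the 9.05% of all genes, with upper limits of 30.2 and 44.5%. They rest on 1 gene each and moved with the rule, to 21.1 and 18.2% with each control peak's widest Znhit1-CKO peak (14% of all genes) and to 18.8 and 20.0% at a ratio of at most 0.6 (15.3% of all genes). Markers of somatic testis cells were present too, with 4 of 13 Sertoli genes (30.8%, 9.09 to 61.4%), namely Gja1, Inha, Sox9 and Wt1. Sox9 and Wt1 are also counted among the developmental regulators, and the Inha pair holds the start of its neighbour Obsl1. Of 9 genes of Leydig, peritubular, endothelial and immune cells, 2 had a halved pair, Acta2 (1218 to 520 bp) and Col1a2 (1816 to 529 bp). The part played by somatic cells in the pairs was not tested.

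In the 4 lists left the shares ran from 0 to 10.2%, beside the 9.05% of all genes. No halved pair was found at 25 genes of the G2/M cell cycle list or at 26 genes of meiotic silencing and DNA damage signalling, and the upper limits of 13.7 and 13.2% include the background. Cytoplasmic ribosomal protein genes had 6 of 59 (10.2%), from 383 bp kept of 941 bp at Rpl38 to 680 bp kept of 1569 bp at Rpl5. This share fell to 1.69% with a ratio of at most 0.4, where the share over all genes fell too, to 4.78%. The list of H2A.Z genes and exchange factors had 2 of 24 (8.33%), Ep400, an ATPase that exchanges H2A.Z (1343 to 666 bp), and Ino80c, a subunit of the INO80 remodeller (1806 to 691 bp). Znhit1 was not among the halved genes. With each control peak's widest Znhit1-CKO peak, where 14% of all genes had a halved pair, the H2A.Z and exchange list stood at 22.2% (8.62 to 42.3%), above that background in place of below it, and the G2/M list at 7.14%.

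Of all genes at a boundary, those with the widest halved pairs were of varied kinds. Vax2, a homeobox gene of the ventral eye, had the smallest ratio among the named genes at a boundary, 2467 bp (chromosome 6, 83710130 to 83712596) against 230 bp. Gfi1, a zinc finger repressor of blood cell development, went from 2466 to 376 bp, Rasgrf1, an exchange factor for Ras, from 2453 to 384 bp, and Qk, an RNA-binding protein gene, from 2361 to 462 bp. Klf9, a Kruppel-like factor gene, kept 748 of 2417 bp, all upstream of the start. Ttc4 and Mroh7 share 1 pair of 2480 and 784 bp. Trhde kept 550 of 2414 bp and Ovol2, an epithelial zinc finger gene, 1045 of 2416 bp.

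Smallest in ratio after Vax2 was Kif2b, a kinesin gene, where 215 of 2174 bp remained, from 1145 bp past the start. A pair shared by Abca7 and Cnn2 kept 232 of 2119 bp over the start of Abca7, without a differential region. Hrh1, a histamine receptor gene, kept 197 of 1671 bp. Pcsk2, a prohormone convertase gene, kept 188 of 1506 bp and Slc6a2, the noradrenaline transporter gene, 190 of 1342 bp. Rbmxl2, an RNA-binding protein gene of meiotic germ cells, kept 236 of 1561 bp. These remaining peaks, 188 to 236 bp wide, were near the narrowest of the Znhit1-CKO list.

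The authors' differential regions are from the same contrast as the widths, so they are described only. They give no direction. A region lay on 1692 of the 2913 halved pairs (58.1%, 56.3 to 59.9%) and on 43.6% of the other pairs, with 45.6% over all 21679. Reweighted to the same control widths, the other pairs had 45.8%. Inside protein-coding genes the shares were 57.6% (53.7 to 61.6%) and 29.9% (28.4 to 31.5%), and at protein-coding boundaries 68.1% and 60.2%. By width, the shares were 33.0% against 15.1% at control widths of 501 to 750 bp and 67.2% against 63.1% at 1251 to 1500 bp.

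Where a halved pair had a region, that region mostly touched what remained of the peak, though less often than in the wider peaks of other pairs. Nearly all regions in the list are 400 bp wide (24362 of 24367). A region of that size on a control peak reaches a wide Znhit1-CKO peak more readily than a narrow one. The shares thus follow in part from the widths and are a description. In other pairs 99.9% of regions touched the Znhit1-CKO peak and 99.4% had their centre inside it. Of the 1693 regions on halved pairs, 94.0 and 81.1% (79.2 to 82.9%) did. The centre lay a median of 80.5 bp from the centre of the Znhit1-CKO peak and 117 bp from that of the control peak, where other pairs had 106 and 110 bp. Halved pairs with a region kept a median of 37.3% of the control width, and those without one 40.6%.

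The control peak nearest to a halved pair was described by whether it had a Znhit1-CKO peak. For 2239 halved pairs the nearest other control peak was within 20000 bp, and in 1188 of these (53.1%, 51.0 to 55.1%) it had no Znhit1-CKO peak, against 43.7% (42.9 to 44.6%) for other pairs. Over all control peaks 50.7% had none, a value between these shares. That set is not alike, as it also counts peaks that are not the nearest neighbour of a pair. At protein-coding boundaries the values for halved and other pairs were 49.4 and 40.9%, and away from them 54.8 and 46.5%. The nearest peak was itself halved for 7.28% of halved pairs (6.24 to 8.44%) and 5.95% of other pairs (5.56 to 6.36%), and these intervals overlapped. The neighbours come from the same 2 lists as the members, so no test was run.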

How the data were processed

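H2A.Z chromatin immunoprecipitation and sequencing was done on testis cells of control and Znhit1-CKO mice. Per the submitters' processing notes reads were handled with MACS2 2.2.4, Picard 2.20.7, BWA 0.7.17, cutadapt 2.5 and SAMtools 1.9 (no order or role given), on mm10. The authors deposited peak and differential region positions only. The sources used here do not give the peak threshold, any pooling of replicates or the depth per library. The protocol names 2 independent biological replicates.

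Overlaps were computed in Python 3.11.15 with numpy 2.4.6, pandas 2.3.3 and scipy 1.17.1, and plotted with matplotlib 3.10.9. For 48752 control peaks, 0 overlap counts differed from those of bedtools 2.31.1. The pair rule was tested on simulated data, where it recovered 1479 of 1479 halved pairs among 6000 peaks. Width is end minus start. Genes and promoters came from RefSeq tables of GRCm38.p6, the assembly that mm10 is built on. Starts were oriented where the control peak held 1 listed start, with the start counted as 0 and chromosome 18 not used here. Coordinates in the text count from 1.

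No hypothesis test was made, since each genotype has 1 list. The members and gene lists were chosen with earlier results of these data known. The 13 lists hold 565 distinct genes, 16 of them in more than 1 list, and 2 symbols were not found. Named genes were the 15 widest and 15 smallest-ratio halved pairs at a protein-coding boundary (predicted genes left out), list members with a halved pair, pairs beside the thresholds and the 5 widest pairs away from gene boundaries. Not all of these are printed, and some are not reported here.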

Additional observations from a re-analysis of the deposited data

How the results depend on the processing

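No paired analysis was possible because the peaks of each genotype come as 1 list that does not separate its replicates, so single replicates could not be left out either. No alternative reversed the sign of a main difference in percentage points. Shares of single gene lists cannot change sign, but some crossed the share of all genes at the same setting. With each control peak's widest Znhit1-CKO peak, the H2A.Z and exchange list and the pachytene list went from below it to above it. With a ratio of at most 0.4, the ribosomal protein and spermatid lists went from above it to below it. Of 66 recomputed main values, 42 stayed within the counting interval of the reported value (or within 1.5 times, for the number of pairs) and 24 did not, and of 91 shares of single gene lists 88 stayed and 3 did not. The intervals of single lists are wide, so staying within them says little. The causes were not tested. With a ratio of at most 0.4 there were 1588 halved pairs (7.33%), the excess of differential regions over other pairs was 18.7 percentage points (reported 14.5), the central share was 69.1% and the downstream share 38.4%. With at most 0.6 these were 4623, 21.3%, 11.1, 79.8% and 24.9%. The single lists that moved were the spermatid (0%) and ribosomal protein genes (1.69%) at 0.4, where all genes had 4.78%. At 0.6 the piRNA genes moved (66.7%), where all genes had 15.3%. For control peaks of at least 500 bp the halved share was 14.9%, the excess of differential regions 9.43 and the boundary difference -25.1 percentage points (reported -19.5). With each control peak's widest Znhit1-CKO peak the values were 16.1% halved, -10.8 at boundaries, 70.7% central and -3.27 for CpG-rich promoters (reported -13.1). Without Znhit1-CKO peaks under 250 bp, chosen after seeing the data, they were 11.7% halved, -17.3 at boundaries and 76.5% central. Where a region had to cover 50% of the control peak the excess was 3.33, a cover that a 400 bp region can reach on narrow peaks only, and with other pairs reweighted by width it was 12.3. With the boundaries of all annotated genes the difference was -16.0. The Znhit1-CKO peak lay inside the control peak without touching its ends in 88.9%, in place of the central 74.6%. Depth per library and peak scores are unknown here, so the precision of single peak widths could not be assessed.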
